A study of Mus musculus with 12 samples.

Results

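The T cell receptor complex and the first signalling proteins beneath it were followed through 9 genes of mouse primary CD8+ T cells: Cd3d, Cd3e, Cd3g and Cd247, which encode the CD3 delta, epsilon, gamma and zeta chains; Cd8a and Cd8b1, which encode the 2 chains of the CD8 co-receptor; the kinase genes Lck and Zap70; and the adaptor gene Lat. They were taken by gene name for their place in the pathway, with earlier results of these data known, and all 9 were found among the 54532 genes listed for each library. Wild-type cells with the non-targeting siRNA (siNTC) or cells with an siRNA against Creb1 (siCreb1, labelled as a Creb1 knockdown) received either the vehicle DMSO or trans-vaccenic acid (TVA), a trans fatty acid, for 24 h. Each of the 4 groups (siNTC, siNTC+TVA, siCreb1 and siCreb1+TVA) held 3 RNA-seq libraries. By the study's methods all cells were isolated, activated and given siRNA by the Accell method before TVA. The methods describe activation of T cells with plate-bound antibodies to CD3 and CD28. For siRNA culture they list PHA, CD3 or IL-2 without saying which was used here. The siRNA depletes the transcript for a time and leaves the gene in place.

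The alpha-beta T cell receptor has no signalling tail of its own. It sits in the membrane with the CD3 chains, whose tyrosine motifs are phosphorylated by LCK when the receptor meets its ligand. LCK is brought to the receptor by CD8, which binds the same MHC class I molecule. The phosphorylated motifs recruit the kinase ZAP-70, which phosphorylates LAT, and LAT then assembles the complexes that lead to calcium, Ras and NF-kappaB signalling. CREB1, the product of the targeted gene, is a transcription factor that binds the cyclic AMP response element.

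Expression was given by the authors as FPKM, reads scaled by gene length and library size, and FPKM values are compared between genes below because they are per length. The reads could be recovered from these values, at 16660234 to 24602484 per library, and each of the 9 genes rested on at least 3780 reads in every library. Fold changes are log2 differences of log2(FPKM + 1) from one limma fit of the 12 libraries, and a gene was called changed when its Benjamini-Hochberg adjusted p over the 11550 tested genes was under 0.05. All 9 genes passed the filter for testing, a mean of 1 FPKM. Creb1 lay between 10.3 and 12.4 FPKM in the siNTC and siNTC+TVA libraries and between 1.17 and 1.81 FPKM in the siCreb1 and siCreb1+TVA libraries. The 9 transcripts taken as T cell and CD8 markers were the CD3 and CD8 genes with Trac, Trbc1 and Trbc2. They summed to 3866 to 4447 FPKM per library, against 0.921 to 1.75 FPKM of Cd4. The mean of this sum was 4422 FPKM in siNTC, 4195 in siNTC+TVA, 4036 in siCreb1 and 3951 in siCreb1+TVA libraries. The labels do not say whether replicate libraries came from separate mice or cultures, so the tests measure the spread between libraries.

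Because Creb1 was the gene depleted, the promoters of the 9 genes were read for the letters of the cyclic AMP response element, TGACGTCA, and of its core, TGACG, on both strands. The full element holds the core on each strand. RefSeq promoter windows of 300 bases (250 before to 50 after a start site, GRCm38.p6) matched 8 of the 9 genes and gave 11 windows; Cd8b1 was not matched. The full element stood in 1 window, the most upstream of those of Zap70, and the core alone in 1 other, that of Cd3e. Among all 32851 windows, 1.79% held the full element and 20.8% the core on either strand. The windows of Zap70 and Cd3e are shown with these letters in capitals. Those of Cd3g and Cd3d hold neither. They are shown because these neighbours are transcribed away from each other and were both called lower with knockdown without TVA. With TVA only Cd3d was called, and neither was called after rescaling to TPM.
Zap70, chr1:36761548-36761847, + strand: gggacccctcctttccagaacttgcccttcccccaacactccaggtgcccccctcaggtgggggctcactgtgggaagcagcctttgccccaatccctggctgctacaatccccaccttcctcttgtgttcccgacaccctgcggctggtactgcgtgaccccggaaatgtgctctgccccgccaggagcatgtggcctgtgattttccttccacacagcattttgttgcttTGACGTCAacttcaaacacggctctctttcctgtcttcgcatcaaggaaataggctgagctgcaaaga
Cd3e, chr9:45009562-45009861, - strand: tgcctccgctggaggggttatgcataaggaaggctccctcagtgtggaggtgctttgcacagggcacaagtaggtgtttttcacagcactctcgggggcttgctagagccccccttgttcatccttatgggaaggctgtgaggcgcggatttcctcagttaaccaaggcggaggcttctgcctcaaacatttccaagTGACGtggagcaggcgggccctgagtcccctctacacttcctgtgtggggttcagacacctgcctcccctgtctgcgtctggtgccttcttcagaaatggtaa
Cd3g, chr9:44980382-44980681, - strand: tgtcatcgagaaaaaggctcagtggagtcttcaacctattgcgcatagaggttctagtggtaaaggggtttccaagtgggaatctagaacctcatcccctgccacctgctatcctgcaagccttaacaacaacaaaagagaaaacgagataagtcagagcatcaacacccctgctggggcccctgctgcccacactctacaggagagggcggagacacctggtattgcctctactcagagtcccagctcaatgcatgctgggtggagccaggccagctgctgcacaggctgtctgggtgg
Cd3d, chr9:44981536-44981835, + strand: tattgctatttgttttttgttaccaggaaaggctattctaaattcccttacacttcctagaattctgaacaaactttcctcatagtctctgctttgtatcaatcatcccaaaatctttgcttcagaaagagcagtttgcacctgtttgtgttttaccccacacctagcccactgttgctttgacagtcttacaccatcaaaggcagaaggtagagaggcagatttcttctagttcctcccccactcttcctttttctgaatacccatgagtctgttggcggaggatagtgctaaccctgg
In the Zap70 window TGACGTCA ran from position -18 to -11 before the start site, and in the Cd3e window TGACG ran from -53 to -49. These are matches of letters and not binding sites.

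All 9 genes were among the 931 most highly expressed of the 11550 tested. Their mean over the 12 libraries fell in the order Cd8b1 (887 FPKM), Cd8a (433 FPKM), Lck (318 FPKM), Cd3d (240 FPKM), Lat (190 FPKM), Cd3g (127 FPKM), Cd3e (99.2 FPKM), Zap70 (79.8 FPKM) and Cd247 (53.3 FPKM). The ranges over the 12 libraries of neighbours in this order did not overlap, the closest pair being Cd3e, never below 92.0 FPKM, and Zap70, never above 91.6 FPKM. The chains of one complex thus differed in FPKM, with Cd3d at 4.51 times Cd247. This order depends on the gene lengths by which reads were divided, 1815 bases for Cd3d and 5329 for Cd247. Recovered reads per library were 7414 to 10188 for Cd3d and 4960 to 6762 for Cd247. They were 25584 to 40992 for Cd8a (3637 bases) and 22966 to 30962 for Cd8b1 (1483 bases).

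On the FPKM scale as deposited, Creb1 knockdown without TVA called 5 of the 9 genes lower (Cd8b1, Cd3d, Cd247, Cd3g and Lck) and 1 higher (Cd8a). Of all tested genes 13.7% were called, 7.21% lower and 6.52% higher. Among the 931 tested genes at or above the level of Cd247, the lowest of the 9, 33.1% were called, 24.7% lower and 8.38% higher. The changes were small, at most 10.6% of the mean FPKM. The median log2 fold change of the 9 genes was -0.13, against -0.001 over all tested genes. The calls depended on scaling. After quantile normalization 1 of the 9 was called lower and 2 higher, and after rescaling to TPM 0 lower and 1 higher.

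Cd3d (ENSMUSG00000032094, chr9:44981786-44987339) measured 247, 265 and 258 FPKM in siNTC and 227, 237 and 229 FPKM in siCreb1 libraries. With TVA it measured 248, 245 and 249.9 FPKM in siNTC+TVA and 230.1, 224 and 224 FPKM in siCreb1+TVA libraries. On the FPKM scale as deposited, every siCreb1 library thus lay below every siNTC library, with or without TVA. The fall was 0.15 on the log2 scale without TVA (SE 0.03, Benjamini-Hochberg adjusted p = 0.00616, limma) and 0.13 with TVA (adjusted p = 0.0159, limma). Of the 10 alternatives other than leaving out a library, 3 lost the call without TVA and 2 the call with TVA. Over all alternatives the log2 values ran from -0.18 to -0.05 without TVA and from -0.14 to -0.07 with TVA.

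Cd3g (ENSMUSG00000002033, chr9:44969572-44980431) starts 1354 bases from Cd3d on the opposite strand. It measured 137, 131 and 132 FPKM in siNTC and 120.1, 123 and 121.5 FPKM in siCreb1 libraries, which did not overlap. It measured 133, 130.0 and 125 FPKM in siNTC+TVA and 120.3, 123 and 126 FPKM in siCreb1+TVA libraries, where the highest knockdown library exceeded the lowest control. Cd3g fell by 0.13 on the log2 scale without TVA (SE 0.03, adjusted p = 0.00992, limma). With TVA its log2 fold change was -0.07 (95% interval -0.13 to -0.01, adjusted p = 0.125, limma), which did not pass the test.

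Cd3e (ENSMUSG00000032093, chr9:44998740-45009627), the third gene of this cluster, lies 11400 bases beyond Cd3d, and its knockdown fold changes had the opposite sign to those of Cd3d and Cd3g. It measured 98.3, 92.0 and 93.8 FPKM in siNTC and 103, 97.2 and 102 FPKM in siCreb1 libraries, which overlapped. With TVA it measured 95.2, 96.5 and 99.4 FPKM in control and 101, 107 and 105 FPKM in knockdown libraries, which did not overlap. Its log2 fold changes of 0.09 without TVA (95% interval 0.02 to 0.16, adjusted p = 0.104, limma) and 0.10 with TVA (95% interval 0.03 to 0.18, adjusted p = 0.0731, limma) did not pass the test. Limma-voom on the recovered reads called Cd3e higher in both comparisons, by 0.11 (adjusted p = 0.0121) and 0.12 (adjusted p = 0.00491) on the log2 scale. An antisense gene, Gm48719, overlaps Cd3e over 3557 bases, and the sources used here do not say whether reads were counted by strand, so the reads of the pair cannot be told apart. Gm48719 measured 12.9 ± 1.59, 10.2 ± 0.817, 17.2 ± 3.06 and 15.2 ± 1.87 FPKM (SD, n = 3) in siNTC, siNTC+TVA, siCreb1 and siCreb1+TVA cells, with 62 to 149 reads per library against 6527 to 10928 for Cd3e. Its log2 fold change with knockdown was 0.38 without TVA (adjusted p = 0.0847, limma) and 0.52 with TVA (adjusted p = 0.0322, limma), and its part in the Cd3e values was not tested.

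Cd247 (ENSMUSG00000005763, chr1:165788681-165877277) encodes the zeta chain, which carries more tyrosine motifs than any other chain of the complex and lies on another chromosome from the other CD3 genes. It measured 59.9, 55.6 and 53.9 FPKM in siNTC and 51.3, 50.8 and 50.5 FPKM in siCreb1 libraries. In the presence of TVA it was at 55.4, 55.9 and 54.6 FPKM in control and 50.55, 50.71 and 49.95 FPKM in knockdown libraries. The knockdown libraries were all below the controls, and siNTC replicate 1 was the highest of all. Cd247 fell by 0.15 without TVA (SE 0.03, adjusted p = 0.0157, limma) and by 0.13 with TVA (adjusted p = 0.0316, limma) on the log2 scale. The first call was lost without siCreb1 replicate 3 (-0.14, adjusted p = 0.0512, limma), and the second when any of the 6 libraries with TVA was left out (-0.14 to -0.12, adjusted p = 0.0593 to 0.0933, limma). The opposite-strand gene Pou2f1, at a mean of 2.64 FPKM, overlaps Cd247 over 12124 bases.

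**Figure D1:**
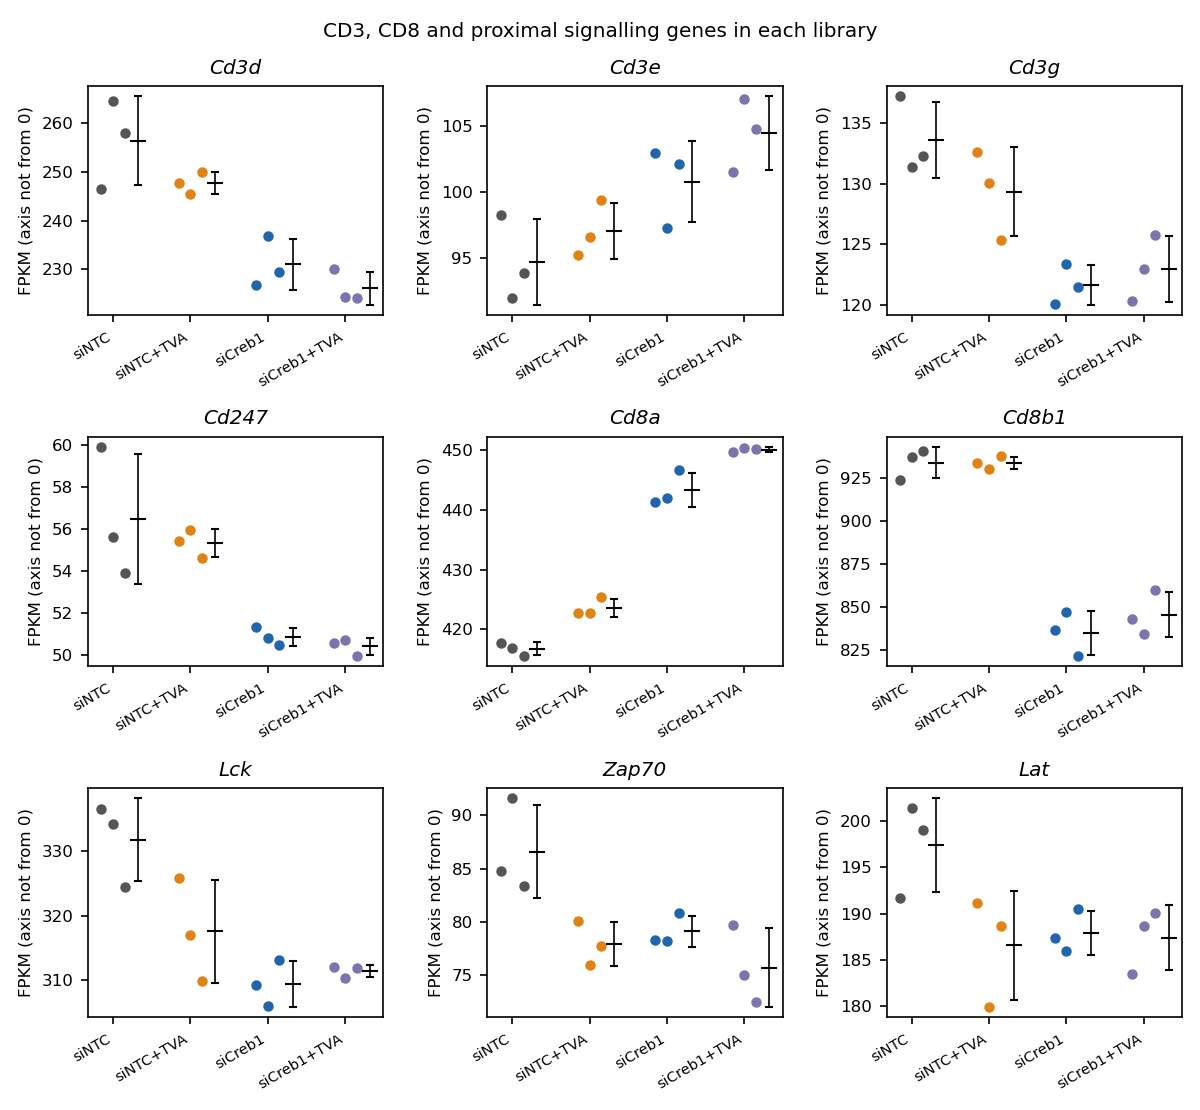
FPKM of the 9 genes in each library (points; vertical axes do not start at 0), with the group mean and SD of 3 libraries beside them in black. Cd3d, Cd247 and Cd8b1 lie lower in all 6 knockdown libraries than in the 6 control libraries and Cd8a lies higher.

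The co-receptor genes moved apart. Cd8b1 (ENSMUSG00000053044, chr6:71322788-71337494) measured 924, 937 and 941 FPKM in siNTC and 836, 847 and 822 FPKM in siCreb1 libraries. TVA-treated libraries held 934, 931 and 938 FPKM in control and 843, 834 and 859.7 FPKM in knockdown libraries. It fell by 0.16 on the log2 scale without TVA (SE 0.02, adjusted p = 0.000665, limma) and by 0.14 with TVA (SE 0.02, adjusted p = 0.00224, limma), the largest falls of the 9 genes in both comparisons on the FPKM scale as deposited. Under quantile normalization the values were -0.09 (adjusted p = 0.0237, limma) and -0.02 (adjusted p = 0.653, limma), and Cd8b1 was no longer the lowest of the 9.

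Cd8a (ENSMUSG00000053977, chr6:71373427-71379173) begins 35932 bases beyond the end of Cd8b1 on the same strand and rose. It measured 418, 417 and 416 FPKM in siNTC and 441, 442 and 447 FPKM in siCreb1 libraries. TVA-treated libraries held 423, 423 and 425 FPKM in control and 449.6, 450.4 and 450.1 FPKM in knockdown libraries. The 4 groups did not overlap for Cd8a. Its log2 fold change with knockdown was 0.09 without TVA (SE 0.02, adjusted p = 0.00398, limma) and 0.09 with TVA (adjusted p = 0.0068, limma). The TVA libraries were above the vehicle libraries within each siRNA, but these differences of 0.02 on the log2 scale did not pass the test (adjusted p = 0.423 in siNTC and 0.721 in siCreb1 cells, limma). Of all tested genes, 23.9% and 17.1% had no overlap of 3 libraries against 3 in the TVA comparisons, and 31.5% and 31.8% in the knockdown comparisons without and with TVA.

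Across all 6 knockdown and 6 control libraries, Cd3d, Cd247 and Cd8b1 were lower and Cd8a was higher without overlap. This was read from FPKM as deposited and was not examined under the other scalings. Of all tested genes 8.27% were separated in this way, 4.26% lower and 4.01% higher.

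The ratio of 2 genes within a library does not change when the whole library is multiplied by one factor, as in median-ratio scaling or TPM, although quantile normalization does change it. The Cd8a to Cd8b1 ratio of FPKM was 0.452, 0.445 and 0.442 in siNTC, 0.453, 0.454 and 0.454 in siNTC+TVA, 0.528, 0.522 and 0.543 in siCreb1, and 0.533, 0.540 and 0.524 in siCreb1+TVA libraries. It rose from 0.450 ± 0.00527 in the 6 control libraries to 0.532 ± 0.0088 in the 6 knockdown libraries (SD), a 1.18-fold increase (exact permutation test, two-sided, p = 0.00216, the smallest that 924 divisions allow; Benjamini-Hochberg adjusted over the 2 ratios tested, 0.00433). Cd8a was higher and Cd8b1 lower in all 6 knockdown libraries without overlap. The separation of their ratio was fixed by those values, so its p is no further support. The increase of the ratio was 0.25 on the log2 scale without TVA and 0.23 with TVA. For each of these 3 against 3 comparisons the exact permutation test gave its smallest possible p of 0.1. TVA moved the log2 ratio by 0.02 in siNTC and by 0.004 in siCreb1 cells (exact permutation test, p = 0.1 and 0.9).

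The Cd3g to Cd3d ratio, by contrast, was 0.522 ± 0.0227 in the 6 control and 0.535 ± 0.016 in the 6 knockdown libraries (SD), and the difference of 0.04 on the log2 scale did not exceed the spread (exact permutation test, two-sided, p = 0.271). The Cd3e to Cd3d ratio, chosen after its values were seen and therefore not tested, was 0.348 to 0.399 in the 6 control and 0.410 to 0.477 in the 6 knockdown libraries. Likewise the Cd247 to Cd3e ratio was 0.549 to 0.609 and 0.474 to 0.522. Cd3d and Cd247 were thus lower relative to Cd3e in each knockdown library than in any control library.

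**Figure D2:**
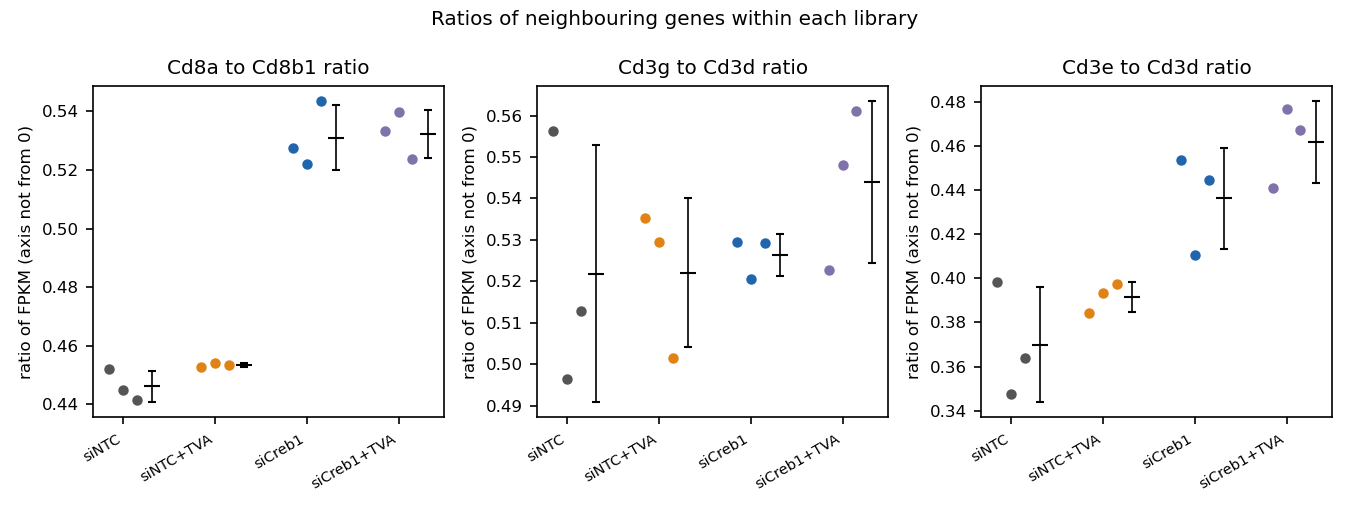
Ratio of FPKM of 2 neighbouring genes in each library (points; vertical axes do not start at 0), with group mean and SD of 3 libraries in black. The Cd8a to Cd8b1 ratio lies at 0.442 to 0.454 in the 6 control libraries and at 0.522 to 0.543 in the 6 knockdown libraries, whereas the Cd3g to Cd3d ratio overlaps between them.

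Of the kinases and the adaptor, Lck was called without TVA and none with TVA. Lck (ENSMUSG00000000409, chr4:129548344-129573641) measured 336.5, 334.2 and 324.5 FPKM in siNTC and 309.3, 306.1 and 313.1 FPKM in siCreb1 libraries, a fall of 0.10 on the log2 scale (SE 0.02, adjusted p = 0.016, limma). This call was lost without siCreb1 replicate 2 (-0.09, adjusted p = 0.0572, limma) and in 4 of the 10 alternatives other than leaving out a library. Over all alternatives the log2 values without TVA ran from -0.12 to -0.02. In the presence of TVA Lck was at 325.7, 317.0 and 309.9 FPKM in control and 312.1, 310.4 and 311.9 FPKM in knockdown libraries. These overlapped, and the log2 fold change of -0.03 (adjusted p = 0.479, limma) turned positive under quantile normalization and when FPKM was rescaled to TPM.

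Zap70 (ENSMUSG00000026117, chr1:36761798-36782818), with the full element in a promoter window above, measured 84.8, 91.6 and 83.4 FPKM in siNTC and 78.25, 78.17 and 80.8 FPKM in siCreb1 libraries. With TVA it measured 80.0, 75.9 and 77.7 FPKM in control and 79.7, 74.9 and 72.4 FPKM in knockdown libraries. The siNTC libraries lay above those of each other group. The log2 fold change with knockdown was -0.13 without TVA (95% interval -0.22 to -0.04, adjusted p = 0.0695, limma) and -0.04 with TVA (adjusted p = 0.571, limma), neither past the threshold. Limma-voom did call Zap70 lower with knockdown without TVA, the 1 of 10 alternatives other than leaving out a library to do so.

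Lat (ENSMUSG00000030742, chr7:126363824-126369570) showed the same order of siNTC above the rest with smaller differences. It measured 191.7, 201.4 and 199.0 FPKM in siNTC and 187.3, 185.9 and 190.5 FPKM in siCreb1 libraries. With TVA it measured 191.1, 179.9 and 188.6 FPKM in control and 183.4, 188.6 and 190.1 FPKM in knockdown libraries. Its log2 fold change was -0.07 without TVA (95% interval -0.13 to -0.01, adjusted p = 0.128, limma) and 0.01 with TVA (adjusted p = 0.911, limma).

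With TVA present, knockdown called 4 of the 9 genes, Cd8b1, Cd3d and Cd247 lower and Cd8a higher. Of all tested genes 10.1% were called, 5.51% lower and 4.64% higher, and of the 931 genes at or above the level of Cd247 30.2% were, 24% lower and 6.23% higher. The count fell to 2 when siNTC+TVA replicate 3, siCreb1+TVA replicate 2 or siCreb1+TVA replicate 3 was left out, in each case by the loss of Cd3d (adjusted p = 0.0511, 0.057 and 0.054, limma) and Cd247. Both knockdown comparisons depended on scaling. Without TVA, 3 of the 9 genes were called after quantile normalization (2 higher, 1 lower), 1 after rescaling to TPM (higher), 2 when only the 6 libraries compared were fitted (lower) and 8 by limma-voom (2 higher, 6 lower), and all 9 directions were kept under these. With TVA, 2 were called after quantile normalization and 2 after rescaling to TPM, all of them higher (Cd3e and Cd8a). Over all tested genes, 47.5% of the calls without TVA were higher, but 75.4% after rescaling to TPM and 59.4% by limma-voom, and with TVA 45.7%, 83.8% and 59.3%, or 64% after quantile normalization. Cd8a lay above Cd8b1 and Cd3e above Cd3d in log2 fold change under each of the 5 scalings. Median-ratio scaling and TPM could hardly alter this order, because they multiply a whole library by one factor. The distance varied: with TVA, quantile normalization put Cd8a at 0.14 and Cd8b1 at -0.02.

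**Figure D3:**
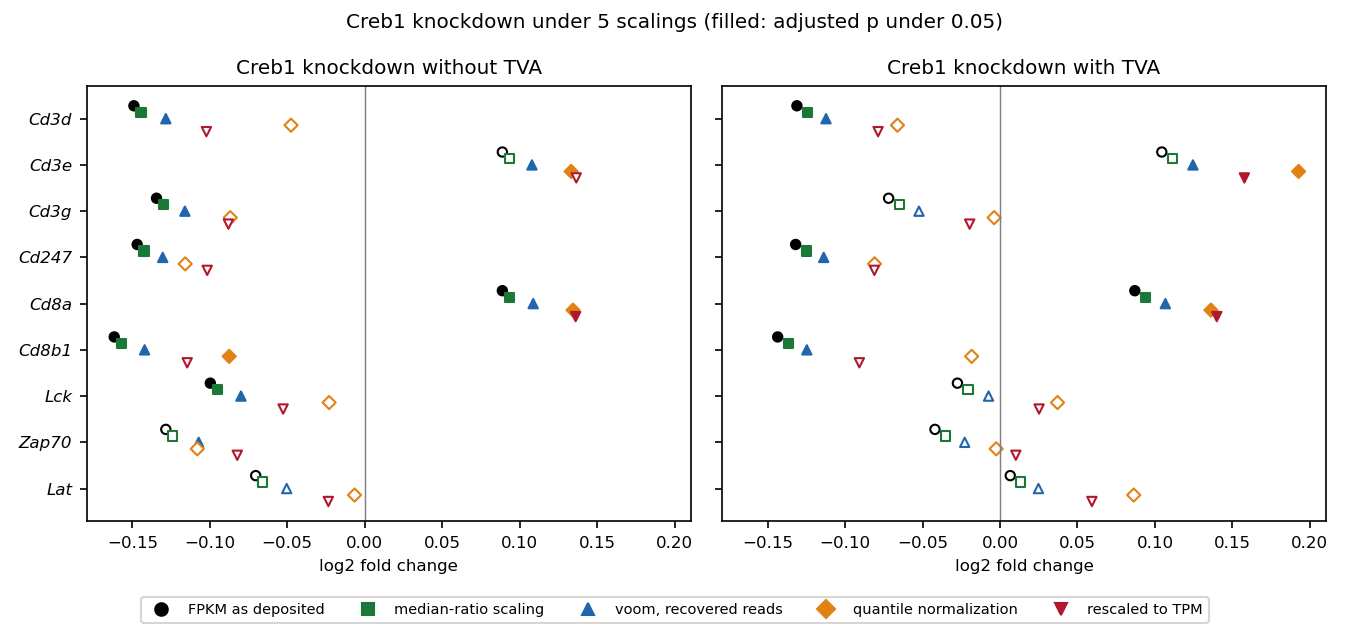
Log2 fold change of the 9 genes with Creb1 knockdown (horizontal axis), without TVA (left) and with TVA (right), under 5 scalings of the libraries (symbols); filled symbols had an adjusted p under 0.05. Rescaling to TPM and quantile normalization shift all 9 genes towards higher values, while Cd8a stays to the right of Cd8b1 and Cd3e to the right of Cd3d.

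TVA called none of the 9 genes in siNTC cells, where 7.38% of all tested genes (4.49% higher, 2.88% lower) and 17.2% of the 931 genes of like level were called; 3 of the 9 had an unadjusted p under 0.05 (limma). These were the proximal kinases and the adaptor. Zap70 had the largest value, -0.15 on the log2 scale (95% interval -0.24 to -0.06, adjusted p = 0.0587, limma), and its 3 siNTC+TVA libraries lay below the 3 siNTC libraries. Limma-voom called it lower by 0.14 (adjusted p = 0.022), as did the test of genes with a mean of at least 5 FPKM (adjusted p = 0.0446, limma) and the fit without siCreb1+TVA replicate 1 (adjusted p = 0.0443, limma). Lat was at -0.08 (95% interval -0.14 to -0.02, adjusted p = 0.121, limma), also without overlap, and Lck at -0.06 (95% interval -0.11 to -0.01, adjusted p = 0.134, limma). The intervals of the 4 CD3 and 2 CD8 genes all held 0, and that of Cd8b1 ran from -0.04 to 0.04.

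In siCreb1 cells TVA also called 0 of the 9 genes, with 0 at an unadjusted p under 0.05 and 0 by limma-voom, and 0.537% of all tested genes were called. The values ran from -0.06 for Zap70 to 0.05 for Cd3e on the log2 scale. The difference between the effects of TVA in siCreb1 and siNTC cells, tested as an interaction, was called for 0 of the 9 genes (0 also by limma-voom) and for 2.24% of all tested genes, and 1 of the 9 had an unadjusted p under 0.05. It was 0.07 for Lck (95% interval 0.0017 to 0.14, unadjusted p = 0.0457, adjusted p = 0.335, limma), 0.09 for Zap70 and 0.08 for Lat. A smaller effect of TVA in siCreb1 cells was therefore not shown for any of the 9 genes.

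**Figure D4:**
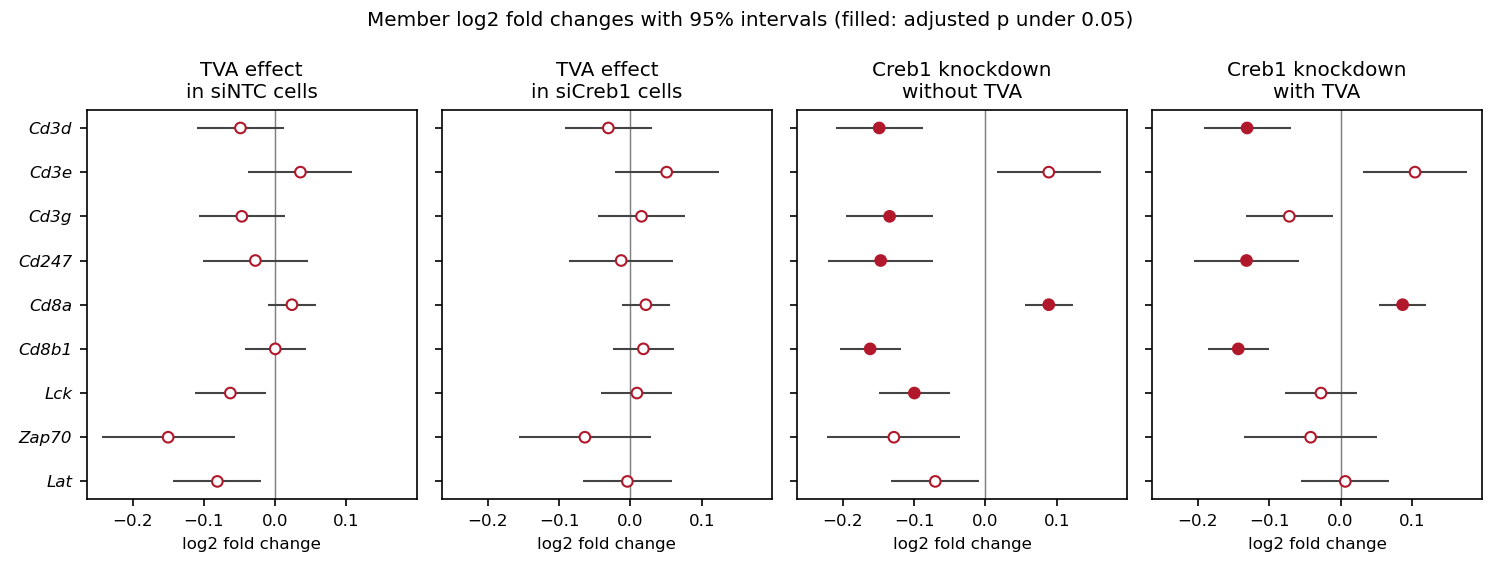
Log2 fold change (horizontal axis, points) with its 95% interval from limma for the 9 genes in the 4 comparisons; filled points had an adjusted p under 0.05. The 6 filled points without TVA and 4 with TVA are all in the knockdown panels, with Cd8a to the right of 0 and the others to the left.

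Zap70 had the widest range of group means, 0.19 on the log2 scale. The 5 genes whose profile over the 12 libraries was nearest to that of Zap70, by the root-mean-square difference of centred log2(FPKM + 1), were Arid5a (0.032), Gnl1 (0.035), Sh2d3c (0.036), Ltb (0.036) and Snrk (0.037). Ltb, which encodes lymphotoxin beta, averaged 642.9 FPKM in siNTC, 581 in siNTC+TVA, 569.9 in siCreb1 and 565 in siCreb1+TVA cells. Its order of siNTC above the others, as in Zap70, follows from the choice by nearness of profile.

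The receptor chains that the CD3 chains carry were lower with knockdown. All 3 constant-region genes fell without TVA (Trbc1 by 0.20, adjusted p = 0.00224; Trbc2 by 0.19, adjusted p = 0.0395; Trac by 0.08, adjusted p = 0.0368, limma) and 2 fell with TVA (Trbc1 by 0.14, adjusted p = 0.0179; Trac by 0.08, adjusted p = 0.0311, limma). After quantile normalization or rescaling to TPM 1 of the 3, Trbc1, was called lower without TVA and 0 with TVA, and Trac turned to a value of 0.0009 under quantile normalization without TVA. Trbc1 and Trbc2 are nearly identical in sequence, so how their reads were divided is uncertain. Limma-voom called 2 of the 3 lower without TVA (Trbc1 and Trbc2) and 1 with TVA (Trbc1). TVA called 0 of the 3 in siNTC cells, where all 3 had an unadjusted p under 0.05 and limma-voom called Trbc2 lower (-0.17, adjusted p = 0.00392), and 0 in siCreb1 cells, where 1 had an unadjusted p under 0.05 and limma-voom called 0. Of all tested genes 7.21% were called lower with knockdown without TVA and 5.51% with TVA.

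Of the proximal partners, 22 of 23 could be tested, and knockdown without TVA called 3 lower and 2 higher (22.7% of the list, against 13.7% of all tested genes and 33.1% of those at or above the level of Cd247). The lists, here and below, were not matched to the other genes on level. Of the genes at or above the level of Cd247, knockdown with TVA called 30.2% and TVA in siNTC cells 17.2%. Among the lower were the kinase gene Tec (-0.27 on the log2 scale, adjusted p = 0.0202, limma) and Ptprcap (-0.17, adjusted p = 0.0201, limma), whose product associates with CD45. The adaptor gene Fyb rose by 0.11 (adjusted p = 0.0287, limma). With TVA 1 fell and 3 rose (18.2%, against 10.1% of all), among them Plcg1, which encodes the phospholipase recruited by LAT (0.14, adjusted p = 0.00908, limma), and Ptprc, which encodes CD45 (0.09, adjusted p = 0.023, limma); Unc119 fell by 0.34 (adjusted p = 0.0236, limma). TVA in siNTC cells called 3 lower and 0 higher (13.6%, against 7.38% of all), among them Plcg1 (-0.11) and Grap2 (-0.07), but 0 after rescaling to TPM. Fyn, the Src-family relative of Lck, lay between 71.0 and 76.5 FPKM in all 12 libraries and was not called in any comparison. Syk, the relative of Zap70 that serves B and myeloid cells, averaged 1.26 FPKM, and Fcer1g, a relative of Cd247, 7.79 FPKM.

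Of 20 negative regulators, all tested, knockdown without TVA called 6 lower and 2 higher. This was 40%, against 13.7% of all tested genes and 33.1% of those at or above the level of Cd247. The lower included Dok2 (-0.20, adjusted p = 0.00392, limma) and Sla and Sla2, which encode adaptors that promote receptor turnover (-0.17 and -0.20, adjusted p = 0.0041 and 0.0107, limma), and the higher Ptpn2, a phosphatase gene (0.12, adjusted p = 0.049, limma). With TVA 1 fell and 2 rose (15%, against 10.1% of all and 30.2% of those at or above the level of Cd247). TVA in siNTC cells called 3 lower and 0 higher (15%, against 7.38% of all and 17.2% of those at or above the level of Cd247). These were Dgka (-0.16, adjusted p = 0.00044, limma), whose product removes the diacylglycerol made below LAT, Sla (-0.14) and Ptpn22 (-0.11). After rescaling to TPM the counts without TVA became 2 lower and 3 higher, and in the TVA comparison 1 lower.

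Of 33 genes of the downstream branches, knockdown without TVA called 7 lower and 1 higher. This was 24.2%, against 13.7% of all tested genes and 33.1% of those at or above the level of Cd247. Store-operated calcium entry was represented by Orai1 (-0.39, adjusted p = 0.00497, limma) and Orai2 (-0.16, adjusted p = 0.00383, limma), which encode channel subunits; Prkcq, which encodes the kinase PKC theta, was at -0.14 (adjusted p = 0.0109, limma), and the NF-kappaB subunit gene Rela at -0.14 (adjusted p = 0.0293, limma). With TVA 3 fell (Akt1, Ppp3r1 and the calcium sensor gene Stim1, at -0.18, -0.16 and -0.15) and 1 rose, Itpr2 (0.16), in all 12.1% of the list against 10.1% of all. Rescaling to TPM left 1 lower (Orai1) and 1 higher without TVA. TVA in siNTC cells called 3 lower (Orai2, Prkcq and Pik3cd) and 0 higher, 9.09% against 7.38% of all, and 0 after rescaling to TPM.

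Of 14 genes that receptor signalling induces, all tested, knockdown without TVA called 2 higher, Cd69 (0.25, adjusted p = 0.0322, limma) and Il2ra (0.23, adjusted p = 0.00132, limma), and 0 lower, and with TVA 2 higher, Tnfrsf4 (0.47, adjusted p = 0.042, limma) and Nfkbid (0.25, adjusted p = 0.0381, limma), and 0 lower. These counts were 2 and 0 under each of the 5 scalings, and 14.3% of the list stood against 13.7% of all tested genes without TVA and 10.1% with TVA. Of 12 transcription factors of the T lineage, knockdown without TVA called 7 lower and 0 higher (58.3%, against 7.21% of all tested genes and 24.7% of those at or above the level of Cd247 called lower), among them Gata3 (-0.23, adjusted p = 0.0297, limma), Ets1 (-0.14, adjusted p = 0.00753, limma), Satb1 (-0.14, adjusted p = 0.00382, limma) and Bcl11b (-0.12, adjusted p = 0.045, limma). These 7 became 3 after quantile normalization and 0 after rescaling to TPM. With TVA, Runx3, whose product sustains CD8 expression, was the 1 called, higher by 0.15 (adjusted p = 0.0124, limma), and it was called under each of the 5 scalings (8.33% of the list, against 10.1% of all). TVA in siNTC cells called 2 lower, Tcf7 (-0.11, adjusted p = 0.00889, limma) and Satb1 (-0.10, adjusted p = 0.0284, limma), and 0 higher. This was 16.7%, against 7.38% of all and 17.2% of those at or above the level of Cd247. After quantile normalization and after rescaling to TPM 1 was called.

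The 17 markers of other cells summed to 32.3 to 34.2 FPKM in siNTC, 30.6 to 31.2 FPKM in siNTC+TVA, 29.2 to 30.8 FPKM in siCreb1 and 34.3 to 36.3 FPKM in siCreb1+TVA libraries. Of the 8 that could be tested, knockdown without TVA called 0 (1 at an unadjusted p under 0.05, 0 by limma-voom, 1 lower after quantile normalization). Knockdown with TVA called 1, the myeloid gene Lyz2, higher (0.40, adjusted p = 0.0478, limma), or 12.5% against 10.1% of all tested genes. That count was 0 after quantile normalization, and 3 of the 8 had an unadjusted p under 0.05 (limma). TVA in siCreb1 cells and the interaction each called 0, with 3 at an unadjusted p under 0.05 (limma). TVA in siNTC cells called 0, with 0 at an unadjusted p under 0.05 (limma). In bulk RNA, fewer cells of a type and less RNA per cell cannot be told apart, and the part of these markers in the results was not tested.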

How the data were processed

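The 9 genes and all gene lists were chosen with earlier results of these data known. RNA-seq libraries (SMARTER mRNA-Seq kit, 3 in each of 4 groups) were analysed from the FPKM values that the authors deposited, 1 value per gene and library, with positions on GRCm38 (mm10). Aligner, counting program and strand setting were not given in the sources used here. FPKM multiplied by gene length gave whole multiples of one step (within 0.01 read) for at least 99.995% of values above 0, so that reads were recovered. The variance between replicate libraries was 3.54 to 5.29 times that of counting.

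Log2(FPKM + 1) values were fitted with limma 3.58.1 (R 4.3.3; lmFit, contrasts.fit, eBayes with trend) for genes averaging 1 FPKM or more, all 12 libraries in one fit, without a replicate block, Benjamini-Hochberg adjusted over all genes. The log2(value + 1) scale understates changes of low genes. Ratios of FPKM were compared by exact permutation tests, with 6 libraries against 6. The genes named from each list are those called in a comparison, at most the 4 with the largest absolute change. Gm48719, Pou2f1, Fyn, Syk and Fcer1g were named after their values were seen. Some members of the lists are not reported here by name. Alternatives were a pseudocount of 0.1, no filter, a mean of at least 5 FPKM, median-ratio scaling, quantile normalization, TPM, the replicate block, no trend, limma-voom on recovered reads, only the libraries compared, and leaving out each library. Replicate numbers come from the labels, and same-numbered libraries did not deviate together (18 correlations of deviations from group means, -0.06 to 0.06).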

Additional observations from a re-analysis of the deposited data

Results flagged for a closer look

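The effect of TVA differed between siNTC and siCreb1 cells, by the interaction test, for 2 of the 118 tested genes of the pathway lists, or 1.69%, against 2.24% of all tested genes, so the count is near that over all genes. Dgka, which encodes diacylglycerol kinase alpha, measured 189 ± 2.31 FPKM in siNTC, 169.8 ± 2.25 FPKM in siNTC+TVA, 188 ± 1.69 FPKM in siCreb1 and 195 ± 1.46 FPKM in siCreb1+TVA cells (SD, n = 3). It fell with TVA in siNTC cells by 0.16 on the log2 scale and was at 0.05 in siCreb1 cells (adjusted p = 0.363, limma), an interaction of 0.21 (SE 0.03, adjusted p = 0.00277, limma). Il2ra, which encodes the alpha chain of the interleukin-2 receptor, measured 17.2 ± 0.512, 17.5 ± 0.231, 20.4 ± 0.726 and 16.7 ± 0.148 FPKM in the same order (SD, n = 3). It fell with TVA by 0.28 in siCreb1 cells (adjusted p = 0.00232, limma) and was at 0.02 in siNTC cells, an interaction of -0.30 (SE 0.04, adjusted p = 0.00698, limma). After rescaling to TPM both interactions missed the threshold (adjusted p = 0.0781 for Dgka and 0.0513 for Il2ra, limma), and limma-voom called both (adjusted p = 3.11e-05 and 0.000794) among 7 of the 118, or 5.93%. Over all genes limma-voom called the interaction for more as well, 446 of the 11550 tested.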

How the results depend on the processing

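Of 981 values of single genes among the 9 under the alternatives, 911 kept their direction and their side of the threshold. Of the rest, 33 lost a call, 9 gained one and 28 changed sign. None of these 28 was in a comparison for which the gene is reported above as called by the limma fit of FPKM as deposited. Called genes among the 9 numbered 6 with knockdown without TVA, but 3 after quantile normalization, 1 after rescaling to TPM and 2 with only the libraries compared. With TVA they numbered 4, but 2 after quantile normalization and 2 after rescaling to TPM. With TVA in siNTC cells 0 were called, but 1 (Zap70) at a mean of at least 5 FPKM and 1 by limma-voom. Leaving out 1 library gave 5 to 6 without TVA, 2 to 4 with TVA and 0 to 1 for TVA in siNTC cells. The cause was not tested. With the replicate number as a block, 6 genes were called without TVA, 4 with TVA and 0 in the other comparisons, the log2 Cd8a to Cd8b1 ratio stayed at 0.24 (exact permutation test within replicate numbers, p = 0.00926) and the log2 Cd3g to Cd3d ratio at 0.04 (p = 0.296); the numbers share no known mouse. The ratios ranged from 0.23 to 0.25 and from 0.02 to 0.06 when a library was left out. Counts over all genes ranged from 368 to 1013 for TVA in siNTC cells (852 as reported), 30 to 157 for TVA in siCreb1 cells (62), 817 to 1983 for knockdown without TVA (1586), 598 to 1532 with TVA (1172) and 152 to 446 for the interaction (259).

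Changes of sign lay near 0. For TVA in siCreb1 cells, quantile normalization gave 0.0022 for Cd247 and 0.0142 for Lat, TPM 0.0025 for Lat, and limma-voom 0.0003 for Cd247 and 0.0086 for Lat. For knockdown with TVA, quantile normalization gave 0.0371 for Lck, and TPM 0.0252 for Lck and 0.0102 for Zap70. For the interaction, Cd8a was at 0.0005 with median-ratio scaling, 0.0016 with quantile normalization and 0.0038 with TPM, and Cd3d at -0.0186 with quantile normalization. Leaving out 1 library gave -0.0602 to 0.0146 for Cd247 and -0.0077 to 0.0054 for Cd8b1 with TVA in siNTC cells, -0.0144 to 0.0111 for Lat and -0.0002 to 0.0316 for Cd3g with TVA in siCreb1 cells, and -0.0191 to 0.0242 for Lat with knockdown with TVA. For the interaction it gave -0.0112 to 0.0362 for Cd3e, -0.0274 to 0.0474 for Cd247, -0.0052 to 0.0456 for Cd3d and -0.0049 to 0.0036 for Cd8a. Depth limits none of the 9 genes, each with at least 3780 reads; 3 libraries per group limit the precision.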
